A study of Mus musculus with 20 samples.

Results

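The replication-dependent histone genes encode the core histones H2A, H2B, H3 and H4 and the linker histone H1, around which and between which nuclear DNA is packed. They lie in clusters and are transcribed mainly while DNA is copied. Their messenger RNAs are known for ending in a conserved stem-loop that the protein Slbp binds, in place of the poly(A) tail carried by other messenger RNAs, and some members can also be made as longer, polyadenylated transcripts in cells that no longer divide. The genes were found by their mouse symbols, which begin with Hist1h, Hist2h, Hist3h or Hist4h, or are the newer names of the same genes. By this rule 68 of the 47729 rows of the count table were members: 6 for H1, 20 for H2A, 17 for H2B, 12 for H3 and 13 for H4. The name table holds 70 such names, and Hist1h2bm and Hist1h2bh were not analysed here. The annotation calls 3 of the 68 pseudogenes.

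RNA was sequenced from the hippocampus of male C57BL/6 mice aged 5 or 20 months that were either exercised on a treadmill or kept as controls without it, with 5 libraries in each of the 4 groups. Titles of the older mice say 24 but the age label says 20 months, and the latter is used throughout. How long the mice ran is not given in the labels, and only numbers in the titles point to separate animals. The p-values therefore cover the variation among the sequenced libraries, which may be technical. Libraries were made with a kit that, as background, captures polyadenylated RNA. Total counts ran from 17653438 to 34495780 per library. Levels are given as CPM, counts scaled to the library's size after adjustment by its TMM normalisation factor. On this scale 3 counts in a library correspond to between 0.0871 and 0.173 CPM. All 12 hippocampal neuron markers examined passed the filter on low counts, with a summed level between 4743 and 5745 CPM in every library. Choroid plexus markers stood far apart in 5 libraries, with scores from 3.23 to 4.39 against -0.26 or less in the other 15. These were replicate 1 of the 5-month controls, replicates 3 and 4 of the 5-month treadmill group, and replicate 1 of each 20-month group. In bulk tissue, fewer cells of a type and less RNA per cell cannot be told apart.

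The stem-loop was looked for after the annotated stop codon, since members are compared below by the length of RNA annotated beyond the stem-loop. The 3 pseudogenes have no annotated coding end and were not searched. The 16 bases of the stem-loop are in capitals below, with 5 bases on either side. They are shown for the members with a stem-loop that passed the filter on low counts, except Hist1h1e. Hist1h2ab, which had 8 counts over all 20 libraries, is shown as well. Sequences are 5′ to 3′ from GENCODE M21 transcripts on GRCm38.
Hist1h1c: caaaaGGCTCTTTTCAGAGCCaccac
Hist3h2a: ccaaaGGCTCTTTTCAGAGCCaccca
Hist3h2ba: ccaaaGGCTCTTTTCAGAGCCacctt
Hist1h2be: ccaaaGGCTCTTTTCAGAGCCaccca
Hist2h3c2: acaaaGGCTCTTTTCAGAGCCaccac
Hist1h4h: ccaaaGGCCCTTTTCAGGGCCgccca
Hist1h4i: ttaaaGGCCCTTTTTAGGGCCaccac
Hist2h4: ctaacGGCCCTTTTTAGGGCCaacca
Hist1h2ab: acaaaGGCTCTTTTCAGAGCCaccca

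A stem-loop with at most 1 mismatch was found in 44 of the 68 members, in 8 sequences. The form with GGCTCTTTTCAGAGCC occurred in 24 members of classes H1, H2A, H2B and H3, and the form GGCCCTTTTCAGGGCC in 7 H4 members. The stem-loop of Hist1h2ab is the same as that of Hist1h1c, although the 2 genes differed widely in their counts. The annotated RNA after it is 11 bases in Hist1h2ab and 840 bases in Hist1h1c, and the genes also differ in other ways: 37.0% of the 31-base windows of Hist1h2ab occur in no other gene against 88.6% in Hist1h1c, and only Hist1h1c has a polyadenylation signal near its annotated end.

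In 2 pairs of neighbouring members that face away from each other, both genes start from 1 short stretch, and these promoters are shown because the levels on either side were far apart. Each entry is 250 bases before and 50 after the start of the H2A gene, from RefSeq on GRCm38.p6, minus strand, with the octamer, CCAAT and TATA motifs in capitals. The Hist2h2ac entry, at chr3:96220831-96221130, also holds the start of Hist2h2be, 239 bases away on the other strand. The Hist1h2ac entry, at chr13:23683910-23684209, holds the start of Hist1h2bc, 251 bases away.
Hist2h2ac promoter: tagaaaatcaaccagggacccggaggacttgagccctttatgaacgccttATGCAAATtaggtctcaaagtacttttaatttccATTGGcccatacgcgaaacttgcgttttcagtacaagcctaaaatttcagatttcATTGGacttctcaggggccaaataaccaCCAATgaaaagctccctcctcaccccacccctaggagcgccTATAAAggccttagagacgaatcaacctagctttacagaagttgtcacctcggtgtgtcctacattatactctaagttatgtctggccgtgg
Hist1h2ac promoter: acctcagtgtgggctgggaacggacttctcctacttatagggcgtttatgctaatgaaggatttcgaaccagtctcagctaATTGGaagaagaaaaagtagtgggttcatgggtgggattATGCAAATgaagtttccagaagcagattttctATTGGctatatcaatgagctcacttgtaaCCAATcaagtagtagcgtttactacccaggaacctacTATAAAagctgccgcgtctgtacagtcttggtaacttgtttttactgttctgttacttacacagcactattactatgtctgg

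Counts were spread very unevenly over the members. The 68 genes together had 43158 counts, which was 0.00882% of all counts. Of these genes 51 had at least 1 count, 17 were at 0 in every library, and 36 had fewer than 10 counts over all libraries. Only 11 members passed the filter on low counts and are called measurable below. They held 97.6% of the members' counts. The 6 highest alone held 92.9%. A mean of at least 1 CPM was reached by 8 members, and 8 had at least 10 counts in every library.

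The order of the members by total count began with Hist1h2bc, an H2B gene, at 10317 counts. It was followed by Hist1h1c, which encodes the linker histone H1.2, at 9578, and by Hist3h2a, an H2A gene, at 7979. Next were 3 H2B genes, Hist3h2ba at 5189 counts, Hist2h2be at 4541 and Hist1h2be at 2498. The other measurable members were much lower: the H3 gene Hist2h3c2 had 553 counts, the H4 gene Hist2h4 had 541, Hist1h1e, which encodes H1.4, had 369, and the H4 genes Hist1h4i and Hist1h4h had 320 and 237. H2B genes held 52.8% of the members' counts, H1 genes 23.3% and H2A genes 18.9%. H4 genes held 3.51% and H3 genes 1.53%.

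The measurable members came from 3 clusters. Chromosome 13 held 54 members, of which 42 had counts and 6 were measurable (Hist1h2bc at 23684199 to 23692908, Hist1h1c at 23738808 to 23740367, Hist1h2be at 23583670 to 23621124, Hist1h1e at 23620629 to 23622558, Hist1h4i at 22040636 to 22041362 and Hist1h4h at 23531050 to 23531519, on GRCm38). Chromosome 3 held 10 members, 3 of them measurable (Hist2h2be at 96221119 to 96223738, Hist2h3c2 at 96238108 to 96239127 and Hist2h4 at 96261682 to 96263311). The small cluster on chromosome 11 held only 3 members but 30.7% of the members' counts, through Hist3h2a at 58954685 to 58956830 and Hist3h2ba at 58948920 to 58949533. The single member on chromosome 6, Hist4h4, an H4 gene, was not measurable.

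Below the filter lay 40 members with counts, whose means ran from 0.05 to 6.5 counts per library. The 5 highest were the H4 genes Hist1h4j (6.5 counts per library), Hist1h4k (5.55) and Hist4h4 (3.3), the H2B gene Hist1h2bg (4.5) and the H2B pseudogene Hist3h2bb-ps (3.4). No member of this set had more than 23 counts in any library. All 57 members that were not measurable summed to between 0.867 and 4.31 CPM per library.

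**Figure D1:**
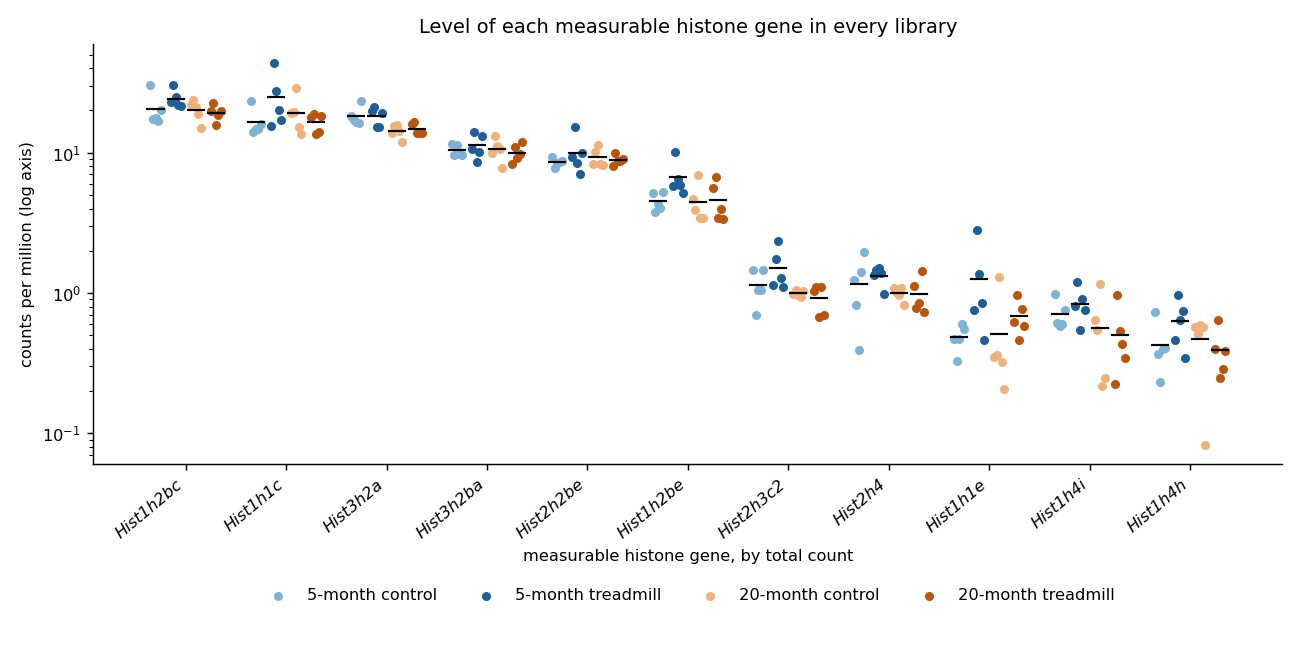
Level of the 11 measurable histone genes in CPM (log axis), one point per library, coloured by group, with the group mean as a black bar. Hist1h2bc, Hist1h1c and Hist3h2a lay highest, between 11.99 and 43.5 CPM in every library, and Hist1h4h lowest.

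Levels of different genes are compared per length, as mean CPM per kilobase of exon over 20 libraries. Hist1h2bc stood at 18.2 ± 3.58 CPM per kb (SD, n = 20) and Hist3h2ba at 17.2 ± 2.65, and these neighbours differed by less than their spread. Hist1h1c followed at 12.4 ± 4.59, Hist3h2a at 7.62 ± 1.30 and Hist2h2be at 3.50 ± 0.649 CPM per kb. The step from Hist3h2a to Hist2h2be was larger than either SD. Hist1h2be (1.14 ± 0.375), Hist2h3c2 (1.12 ± 0.374), Hist1h4h (1.02 ± 0.442) and Hist1h4i (0.898 ± 0.398) had means that differed by less than any of their SDs, and their order was not tested. Hist2h4 (0.687 ± 0.218) had a lower mean but differed from Hist1h4i by less than either SD. Of the measurable members Hist1h1e (0.380 ± 0.303) had the lowest mean. The exon length of Hist1h2be, 4446 bases, joins several transcripts of which the longest has 2506 bases, so its level per length is an underestimate if only 1 of them was present.

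Measurable members and the rest differed in how far their annotated transcripts reach beyond the stem-loop. Of the 22 members whose stem-loop lies within 100 bases of the annotated end, 1 was measurable, Hist1h4h, which has 46 bases after it and a polyadenylation signal in its last 60 bases. Of the 22 members with more than 100 bases after the stem-loop, 8 were measurable. These sets differed in other ways too. The longest annotated transcript had a median of 483.5 bases in the set within 100 bases and 1194 in the set beyond. The median share of sequence windows that occur in no other gene was 32.3% and 69.2% in the same order. Whether transcript length or shared sequence had a part in which members were measurable was not tested. The bases annotated after the stem-loop were 169 in Hist3h2ba, 330 in Hist1h4i, 377 in Hist2h3c2, 840 in Hist1h1c, 1153 in Hist1h1e, 1257 in Hist2h4, 1643 in Hist3h2a and 1861 in Hist1h2be.

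Among the 24 members without a stem-loop in the annotated transcript, Hist1h2bc and Hist2h2be were measurable. Many of the 24 could not show one, because their annotated transcript ends at or just after the stop codon. In Hist1h2ai both lie at base 393 and in Hist1h4k at base 312. The 3 pseudogenes, which were not searched, are also among the 24, so this set does not show that the stem-loop is lacking. The transcript of Hist2h2be is 2620 bases long and carries a polyadenylation signal, and that of Hist1h2bc, 1156 bases, is spliced from a longer gene span. The median level was 0.0160 CPM per kb in the members that end near the stem-loop and 0.0995 in those that reach further. Polyadenylation signals near the end were annotated in 8 of the 11 measurable members, in 7 of the 40 counted members below the filter and in 2 of the 17 members at 0. A long annotated end did not by itself go with a high count: Hist4h4 has 2445 bases after its stem-loop and a mean of 3.3 counts. Annotated ends may themselves rest on polyadenylated RNA, so these features and the counts are not independent.

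**Figure D2:**
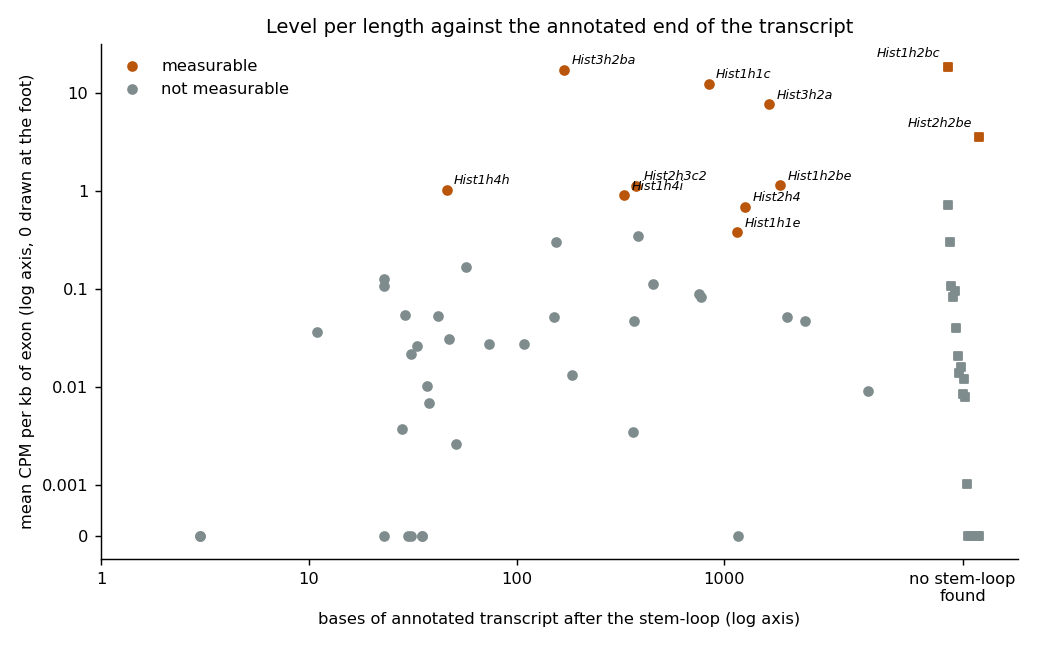
Mean level per kilobase of exon (log axis, with 0 drawn at the foot) against the bases of annotated transcript after the stem-loop (log axis), one point per member, with members in which no stem-loop was found as squares at the right. Measurable members, in orange, have more than 100 bases after the stem-loop except Hist1h4h with 46, or lie among those without one.

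As a set, the members at 0 had the least sequence of their own. The share of 31-base windows that occur in no other annotated gene had a median of 66.55% in the measurable members (range 35.8% to 97.4%), 40.4% in the counted members below the filter and 6.64% in the 17 members at 0. In 5 members on chromosome 3 every exon base is also annotated to another gene, and all 5 were at 0. How the authors' counting treated reads that fit several genes, and which strand it used, are not given in the sources at hand, so a count of 0 in these members does not show that their RNA was absent.

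Exon bases are shared by 3 of the measurable members too. Hist1h1e and Hist1h2be share exon bases on the same strand, and their counts are uncertain to that extent. Hist3h2a shares 708 bases with Trim17, which encodes a tripartite-motif ubiquitin ligase, and others with an antisense gene. The other 8 measurable members share no exon base with another annotated gene.

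Facing pairs of members showed the same unevenness. There were 13 pairs on opposite strands with starts 173 to 306 bases apart, and in none of them were both members measurable. In 3 pairs 1 member was measurable and in 10 pairs neither was. Beside Hist2h2be, at 9.17 ± 1.70 CPM (SD, n = 20), lay Hist2h2ac at 0.0861 ± 0.0595 CPM. Beside Hist1h2bc, at 21.02 ± 4.14 CPM, lay Hist1h2ac at 0.128 ± 0.0678 CPM, although Hist1h2ac is annotated with 2010 bases after its stem-loop. Beside Hist3h2a, at 16.4 ± 2.78 CPM, lay the pseudogene Hist3h2bb-ps at 0.140 ± 0.0681 CPM. On both promoters printed above the gap between the 2 sides was many times the spread between libraries. These levels are not scaled to length. Per kilobase of exon they were 3.50 against 0.166 CPM for Hist2h2be and Hist2h2ac, and 18.2 against 0.0514 for Hist1h2bc and Hist1h2ac. The share of 31-base windows in no other gene was 97.2% in Hist2h2be and 35.9% in Hist2h2ac. It was 66.55% in Hist1h2bc and 83.1% in Hist1h2ac. Whether length or shared sequence had a part in the gaps was not tested.

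Promoter motifs were counted on both strands as exact strings, each searched separately. The octamer ATTTGCAT, known from H2B promoters, was in 21.3% of 61 promoter entries of 60 members and in 1.75% of all 32544 promoters of the same length. It was in 7 of 18 H2A and 6 of 15 H2B promoters and in none of the 6 H1, 10 H3 or 12 H4 promoters. Entries of facing H2A and H2B genes overlap, so the same site can be counted in both, as for Hist1h2ae and Hist1h2bg. Member entries are therefore not independent, and their shares are not counts of separate sites. Among all promoters, identical sequences were counted once. TATAAA was in 57.4% of member promoters against 13.6% of all, and CCAAT in 85.2% against 37.4%. CCAAT was in every H1, H2A, H2B and H3 promoter searched but in only 3 of 12 H4 promoters. Both promoters printed above hold 1 octamer, 1 TATAAA and 3 CCAAT. Such matches describe the letters and do not show that a factor is bound.

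The summed level of all 68 members was compared over libraries without a test. In 5-month controls it was 105.2, 73.7, 76.8, 76.2 and 91.3 CPM in replicates 1 to 5, with a mean of 84.6 ± 13.4 (SD, n = 5). In 5-month treadmill mice it was 90.9, 146.9, 99.9, 88.8 and 91.2 CPM, mean 103.5 ± 24.6. The treadmill group overlapped the controls in 4 of its 5 libraries by value, since only replicate 2 lay above the highest control.

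In 20-month controls the summed level was 84.0, 91.05, 102.6, 75.7 and 63.5 CPM, mean 83.4 ± 14.85. In 20-month treadmill mice it was 81.0, 92.0, 68.7, 73.7 and 80.7 CPM, mean 79.2 ± 8.83. The ranges of the 20-month groups overlapped each other and those of the 5-month controls. Without replicate 2 the 5-month treadmill mean was 92.7 CPM. The 11 histone variants that are made outside S phase, such as H3f3b, which encodes H3.3, and H1f0, which encodes H1.0, summed to 360.5 to 447.9 CPM, above the replication-dependent members in every library. Both sums are of counts not scaled to length, from a kit that captures polyadenylated RNA. They therefore do not compare the amounts of the 2 kinds of histone RNA in the tissue.

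By class, H1 members summed to 17.3 ± 3.92 CPM (SD, n = 5) in 5-month controls, 26.3 ± 12.5 in 5-month treadmill mice, 20.0 ± 6.37 in 20-month controls and 17.4 ± 2.67 in 20-month treadmill mice. H2B members stood at 44.5 ± 7.29, 52.9 ± 10.02, 44.8 ± 6.97 and 43.2 ± 4.88 CPM in the same order. H2A members, nearly all of them Hist3h2a by count, stood at 18.5 ± 3.02, 18.5 ± 2.65, 14.6 ± 1.56 and 15.1 ± 1.34 CPM. In control mice every H2A sum at 20 months lay below every one at 5 months, while in treadmill mice the ranges overlapped; the highest H1 sum was the 46.7 CPM of replicate 2 of the 5-month treadmill group. H3 members stood at 1.32 ± 0.427, 1.78 ± 0.595, 1.22 ± 0.103 and 1.09 ± 0.321 CPM, and H4 members at 3.02 ± 1.06, 4.10 ± 1.13, 2.80 ± 0.876 and 2.46 ± 0.488 CPM.

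**Figure D3:**
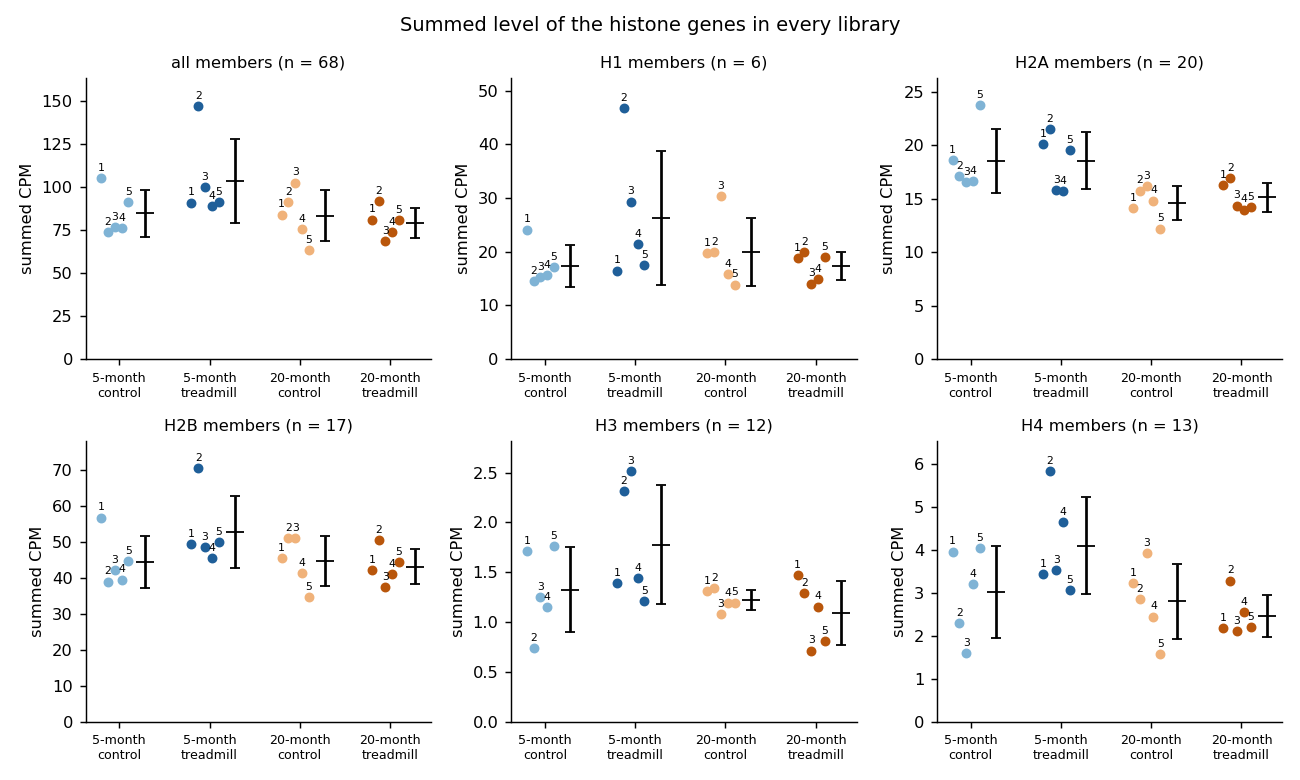
Summed level of all members and of each histone class in every library, in CPM on an axis from 0, with replicates numbered and the mean ± SD of 5 libraries in black. Replicate 2 of the 5-month treadmill group, at 146.9 CPM, lies above the other libraries of its group for all members and for H1, H2A, H2B and H4.

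A single library carried the highest level of most members. Replicate 2 of the 5-month treadmill group was the highest of 20 libraries for 8 of the 11 measurable members and among the 3 highest for all 11. Replicate 5 of the 20-month controls was the lowest for 5 of them and among the 3 lowest for 8. Replicate 3 of the 20-month controls was among the 3 highest for 5 members, as was replicate 3 of the 5-month treadmill group.

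Other RNAs were read in the same libraries. H1f0, whose messenger RNA is polyadenylated, was at 153.9 CPM in that 5-month treadmill library and between 103 and 116 CPM in the other 4 of its group. The non-polyadenylated RNAs of RNase P (Rpph1) and RNase MRP (Rmrp) were at 5.99 and 3.86 CPM there. In the 5-month treadmill group Rpph1 was at 0.842, 5.99, 2.29, 6.61 and 2.08 CPM in replicates 1 to 5, against 0.301 to 1.14 CPM in the controls of that age. Of the 19 rows of such RNAs listed, 11 were at 0 in every library and 2 were tested. In the 5-month treadmill group the list summed to 1.37, 10.7, 3.71, 13.2 and 4.39 CPM in replicates 1 to 5. Replicate 4, with the highest of these sums, had the lowest summed histone level of its group, 88.8 CPM.

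Cell type markers in that library were not those of the choroid plexus, whose score was -0.455 there. The 5 erythrocyte markers, hemoglobin genes and Alas2, summed to 98.2 CPM in it. They summed to 34.7 to 98.2 CPM in the 5-month treadmill group, 23.3 to 47.7 in the 5-month controls, 32.1 to 151 in the 20-month controls and 31.04 to 72.0 in the 20-month treadmill group, and none of them was at 0 in all libraries. The 24 tested genes of S phase and mitosis did not stand out in it, their list summing to 139 CPM within a range of 131 to 144 over all libraries. Whether these RNAs had a part in the histone levels was not tested.

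**Figure D4:**
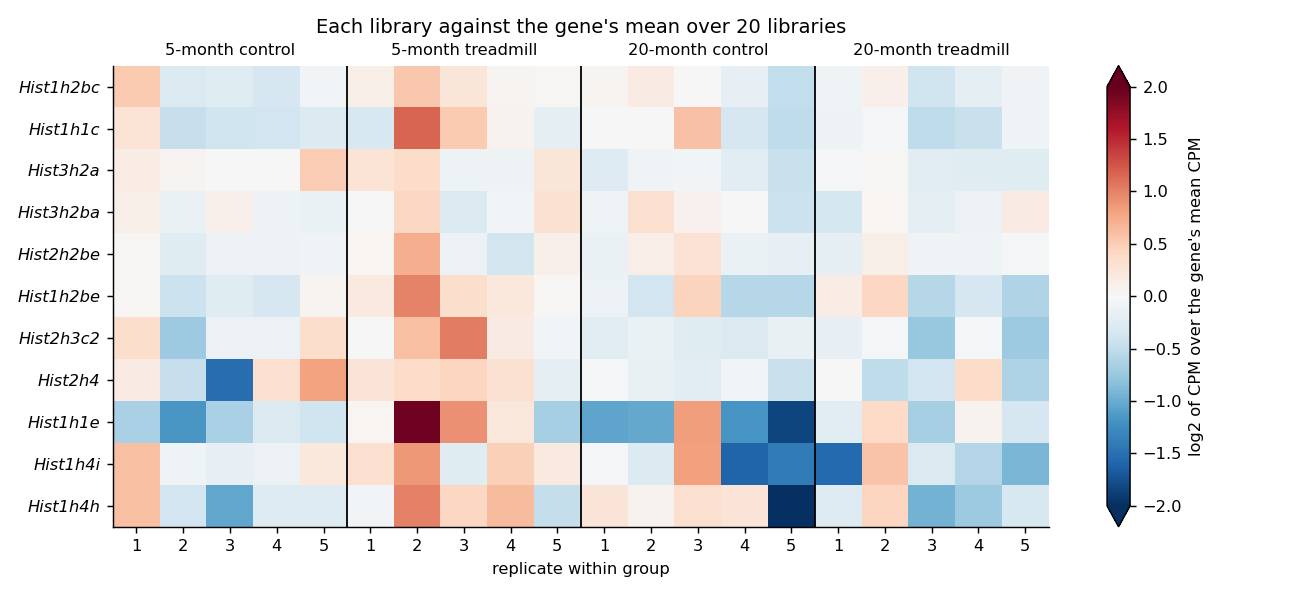
Level of each measurable histone gene in every library, as log2 of its CPM over its mean CPM in 20 libraries, from blue (lower) to red (higher), with groups divided by black lines. The column of replicate 2 of the 5-month treadmill group is red throughout and that of replicate 5 of the 20-month controls is blue throughout.

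Several members varied between libraries more than genes of like level. The coefficient of variation over 20 libraries was 37.1% for Hist1h1c, where the median of the 1505 tested genes in a narrow band around its level was 9.02%. It was 79.8% against 29.5% for Hist1h1e, 32.9% against 15% for Hist1h2be and 19.7% against 8.82% for Hist1h2bc. For the other 7 measurable members it was also above the median of like genes, with the smallest difference for Hist3h2ba, 15.4% against 11.2%.

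At 5 months, no member was called between treadmill and control mice. With edgeR's quasi-likelihood test on 16945 genes and Benjamini-Hochberg adjustment, 0 genes in all passed an adjusted p of 0.05 (0% of genes), and DESeq2 called 0 of 32157 genes (0%). An unadjusted p under 0.05 was reached by 3 of 11 members, Hist1h1e, Hist1h2be and Hist1h1c, where 1.74% of all genes did. The log2 fold change was above 0 in 10 of 11 members, with a median of 0.28 against -0.0016 over all genes.

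Hist1h1c was at 23.3, 14.1, 14.7, 14.8 and 16.02 CPM in 5-month controls and at 15.5, 43.5, 27.7, 20.2 and 17.1 CPM in 5-month treadmill mice. Replicates 2 and 3 of the treadmill group lay above every control, and the groups overlapped. The log2 fold change was 0.59 (SE 0.26, edgeR adjusted p = 1.0).

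Hist1h1e was at 0.468, 0.327, 0.468, 0.601 and 0.554 CPM in 5-month controls and at 0.755, 2.83, 1.37, 0.853 and 0.463 CPM in treadmill mice. All treadmill libraries but replicate 5 lay above every control. Its log2 fold change was 1.42 (SE 0.47, edgeR adjusted p = 1.0).

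Hist1h2be was at 5.15, 3.76, 4.29, 4.01 and 5.29 CPM in 5-month controls and at 5.81, 10.1, 6.50, 5.86 and 5.15 CPM in treadmill mice. Only replicate 5 of the treadmill group fell within the range of the controls. This gave a log2 fold change of 0.58 (SE 0.23, edgeR adjusted p = 1.0).

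These 3 differences were smaller without replicate 2. Without it, 0 of 11 members had an unadjusted p under 0.05, and the log2 fold changes were 0.28 for Hist1h1c (SE 0.22), 0.85 for Hist1h1e (SE 0.42) and 0.38 for Hist1h2be (SE 0.22). The median over members was then 0.20. Without the 5 libraries rich in choroid plexus RNA the median was 0.52 over 12 members, and 6 had an unadjusted p under 0.05, which 1485 of all 17219 genes tested then had. In that setting 3 further genes had log2 fold changes whose 95% intervals lay above 0, Hist2h2be at 0.47 (SE 0.15), Hist1h2bc at 0.49 (SE 0.15) and Hist3h2ba at 0.31 (SE 0.14), each with an edgeR adjusted p of 0.575.

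None of the other 8 members had an unadjusted p under 0.05 at 5 months. Hist1h2bc went from 20.4 ± 5.66 CPM (SD, n = 5) in controls to 24.3 ± 3.71 in treadmill mice. Hist2h2be stood at 8.58 ± 0.577 and 9.99 ± 3.10 CPM, Hist3h2ba at 10.4 ± 0.940 and 11.3 ± 2.20, and Hist3h2a at 18.2 ± 2.90 and 18.1 ± 2.68. Hist2h3c2 stood at 1.14 ± 0.323 and 1.52 ± 0.523 CPM, Hist2h4 at 1.16 ± 0.597 and 1.33 ± 0.206, Hist1h4i at 0.709 ± 0.171 and 0.842 ± 0.235, and Hist1h4h at 0.427 ± 0.182 and 0.633 ± 0.242. Their log2 fold changes lay between -0.004 for Hist3h2a and 0.61 for Hist1h4h. The direction of Hist3h2a turned under other scalings and filters, and all 8 intervals held 0 in the fit to all libraries.

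At 20 months, no member was called between treadmill and control mice. Of 16945 genes edgeR called 0 (0%), DESeq2 called 0 (0%), and 1.82% had an unadjusted p under 0.05. No member did. The log2 fold change was above 0 in 3 of 11 members, with a median of -0.06 against 0.0038 over all genes.

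Hist1h1c was at 19.2, 19.5, 28.9, 15.4 and 13.6 CPM in 20-month controls and at 17.9, 18.8, 13.6, 14.1 and 18.2 CPM in 20-month treadmill mice. The treadmill libraries lay within the controls' range but for replicate 3, just below its lower end, and the log2 fold change was -0.23 (SE 0.26, edgeR adjusted p = 0.9998). Hist1h1e was at 0.351, 0.362, 1.31, 0.324 and 0.206 CPM in controls and at 0.624, 0.970, 0.464, 0.771 and 0.578 CPM in treadmill mice. Of the controls only replicate 3 lay above a treadmill library, and it lay above all 5; the log2 fold change was 0.40 (SE 0.48, edgeR adjusted p = 0.9998). Without that library the value for Hist1h1e was 1.09 (SE 0.44), and it was the 1 of 11 members that had an unadjusted p under 0.05, as 298 of all 17113 genes tested did. Hist1h2be was at 4.66, 3.91, 6.93, 3.42 and 3.42 CPM in controls and at 5.62, 6.74, 3.42, 4.00 and 3.35 CPM in treadmill mice. These groups overlapped over nearly their whole range.

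The change with treadmill was also set against age by an interaction term. Of 16945 genes edgeR called 0 (0%) and DESeq2 0 (0%), and 1.94% had an unadjusted p under 0.05. Hist1h1c was the 1 member of 11 with such a p, at a log2 difference of -0.81 (SE 0.36, edgeR adjusted p = 1.0), where a negative value means a smaller treadmill change at 20 months. The median over members was -0.45, against 0.0022 over all genes, and 1 of 11 was above 0. Without replicate 2 of the 5-month treadmill group the median was -0.29 and no member had an unadjusted p under 0.05. The same held without replicate 3 of the 20-month controls, where it was -0.30. The counts were higher in other settings: without replicate 5 of the 20-month controls 2 of 12 members had such a p, with a median of -0.58, and without the 5 libraries rich in choroid plexus RNA 3 of 12 had one, with a median of -0.53. In these fits 380 of 17111 and 831 of 17219 genes had such a p.

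**Figure D5:**
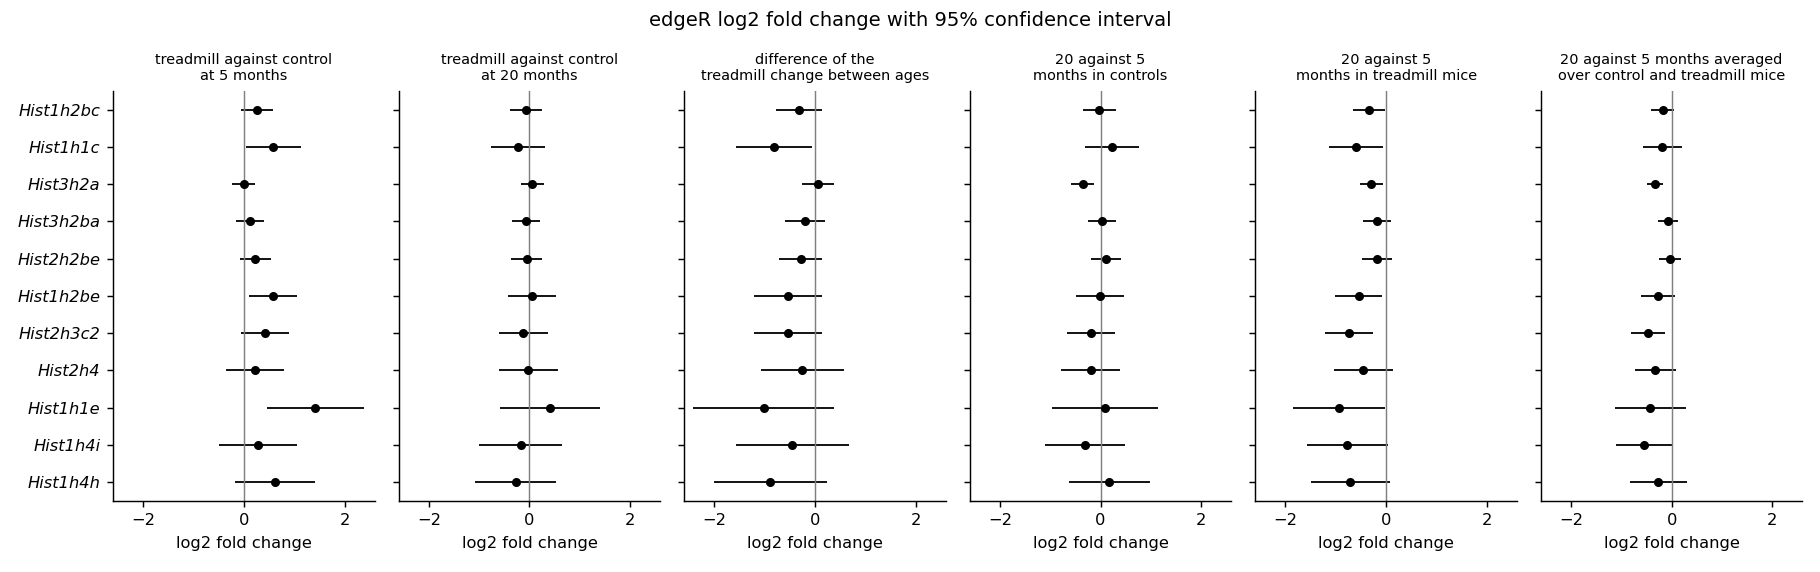
edgeR log2 fold change of each measurable histone gene in 6 comparisons, with its 95% confidence interval as a bar and 0 as a grey line. Intervals of Hist3h2a, the narrowest, lie below 0 in all 3 age comparisons, and those of Hist1h1c, Hist1h1e and Hist1h2be lie above 0 for treadmill at 5 months.

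With age in control mice, edgeR called 12 genes (0.0708%) and no member, and DESeq2 called 40 (0.183%) and no member. An unadjusted p under 0.05 was reached by 1 of 11 members, Hist3h2a, where 7.63% of all genes reached it. The median log2 fold change over members was -0.01, against 0.0005 over all genes, and 5 of 11 were above 0.

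Hist3h2a, the only measurable H2A gene, was at 18.2, 17.0, 16.4, 16.4 and 23.3 CPM in 5-month controls and at 13.7, 15.5, 15.7, 14.2 and 11.99 CPM in 20-month controls. Every 20-month control lay below every 5-month control, which held in either direction for 1.54% of all genes and for no other member. The log2 fold change was -0.36 (SE 0.11, edgeR adjusted p = 0.380).

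With age in treadmill mice, edgeR called 65 genes (0.384%) and no member, and DESeq2 called 187 (1.06%) and no member. An unadjusted p under 0.05 was reached by 6 of 11 members, Hist2h3c2, Hist3h2a, Hist1h2be, Hist1h1c, Hist1h2bc and Hist1h1e, where 12.5% of all genes reached it. All 11 log2 fold changes were below 0, with a median of -0.54 against 0.0004 over all genes. This comparison shares its 5-month treadmill libraries with the treadmill comparison at that age, so the 2 are not independent. Without replicate 2 of that group, 2 of 11 members had such a p, as did 2116 of all 17094 genes tested, the median was -0.35 and 1 member was above 0.

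Hist2h3c2, an H3 gene, was at 1.13, 1.74, 2.33, 1.28 and 1.10 CPM in 5-month treadmill mice and at 1.03, 1.11, 0.678, 1.11 and 0.693 CPM in 20-month treadmill mice. The groups met only at replicate 5 of the younger mice, which lay just below 2 of the older. The fitted log2 change was -0.73 (SE 0.23, edgeR adjusted p = 0.1965) and -0.69 (SE 0.25, edgeR adjusted p = 0.288) without replicate 2. Hist1h2bc was at 22.9, 30.5, 24.8, 21.8 and 21.5 CPM in 5-month and at 19.8, 22.4, 15.9, 18.4 and 20.0 CPM in 20-month treadmill mice. Replicate 2 of the older mice lay above 2 of the younger, and the log2 fold change was -0.34 (SE 0.15, edgeR adjusted p = 0.373).

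Hist3h2a was at 19.7, 21.1, 15.3, 15.3 and 19.3 CPM in 5-month treadmill mice and at 15.9, 16.6, 13.9, 13.8 and 13.8 CPM in 20-month treadmill mice. The 3 highest of the younger lay above all of the older, and the groups overlapped between 15.3 and 16.6 CPM. The log2 fold change was -0.30 (SE 0.11, edgeR adjusted p = 0.266). No member's groups were apart here, where those of 2.87% of all genes were; for treadmill against control, no member's groups were apart at either age, where those of 0.266% of genes at 5 months and 0.272% at 20 months were.

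Since both age comparisons, which share no library, put Hist3h2a lower at 20 months, the age contrast averaged over control and treadmill mice was computed, a choice made after these values were seen. Hist3h2a fell with age in it, by 0.33 on the log2 scale (SE 0.08, 95% interval -0.49 to -0.17, edgeR adjusted p = 0.0321), from 18.2 ± 2.64 CPM (SD, n = 10 libraries) to 14.5 ± 1.38. Of the 10 libraries at 20 months, 6 lay below every library at 5 months, and for Hist1h4i 7 did. Such counts were not made over all genes, so they have no background share to be read against. Hist3h2a was the 1 member called of 11, where edgeR called 320 of 16945 genes (1.89%). DESeq2 called 654 (3.85%), Hist3h2a among them with an adjusted p of 0.00518. Leaving out 1 library at a time ended the edgeR call for 8 of 20 libraries, with adjusted p between 0.0232 and 0.0660 and log2 fold changes between -0.36 and -0.28. The 8 were replicate 5 of the 5-month controls, replicates 1 and 5 of the 5-month treadmill mice, replicates 1 and 4 of the 20-month controls, and replicates 3, 4 and 5 of the 20-month treadmill mice.

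Trim17, which shares exon bases with Hist3h2a, had a log2 fold change of -0.17 in the same contrast (SE 0.08, edgeR adjusted p = 0.258). It stood at 3.74 ± 0.366 CPM (SD, n = 5) in 5-month controls, 4.37 ± 0.594 in 5-month treadmill mice, 3.53 ± 0.398 in 20-month controls and 3.63 ± 0.322 in 20-month treadmill mice. Whether shared reads had a part in the change of Hist3h2a was not tested. The H2B gene Hist3h2ba of the same small cluster was at 10.8 ± 1.66 CPM (SD, n = 10 libraries) at 5 months and 10.3 ± 1.62 at 20 months, with a log2 fold change of -0.08 (SE 0.10, edgeR adjusted p = 0.733). Besides Hist3h2a 1 member had an unadjusted p under 0.05, which 17.8% of all genes had: Hist2h3c2, at -0.46 (SE 0.16, edgeR adjusted p = 0.139). All 11 values lay below 0, with a median of -0.28, against 0.0017 over all genes, of which 50.6% were above 0. Without replicate 2 of the 5-month treadmill group the members' median was -0.16 and 1 of 11 was above 0. In control mice alone, as given above, 5 of 11 were above 0.

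The other members were not called with age. Hist1h4i was at 0.775 ± 0.206 CPM (SD, n = 10 libraries) at 5 months and 0.531 ± 0.318 at 20 months, with 7 of 10 older libraries below every younger one (log2 fold change -0.54, SE 0.27, edgeR adjusted p = 0.303), and Hist1h4h at 0.530 ± 0.229 and 0.431 ± 0.182. Hist2h4 was at 1.249 ± 0.430 and 0.990 ± 0.209 CPM, and Hist2h2be at 9.29 ± 2.23 and 9.06 ± 1.06. At these low levels a library held between 5 and 37 counts of Hist1h4i and between 2 and 30 of Hist1h4h, so their values are imprecise.

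Genes that work with these histones were read from lists. The 15 genes of histone messenger RNA processing were all tested and none was called in any of the 6 comparisons. With treadmill at 5 months, 0 of 15 had an unadjusted p under 0.05 and the median log2 fold change was -0.02. The 4 highest of them were Sympk, a scaffold of the cleavage complex, Srrt, which links the cap-binding complex to RNA processing, Cstf2, a cleavage factor that binds RNA, and Upf1, a helicase of RNA decay. Slbp itself was at 14.8 ± 1.33 CPM (SD, n = 5) in 5-month controls, 14.01 ± 0.585 in 5-month treadmill mice, 14.4 ± 1.15 in 20-month controls and 15.4 ± 1.18 in 20-month treadmill mice. The ranges of the 4 groups of Slbp overlapped.

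Of the 11 replication-independent variants none was called in the 6 comparisons either. Their median log2 fold change was -0.03 for treadmill at 5 months and 0.11 for age in treadmill mice. In the latter comparison 3 of the 11 had an unadjusted edgeR p under 0.05, as did 12.5% of all genes. The highest variants were H1f0, H3f3b, H2afy, which encodes macroH2A1, and H2afv, which encodes H2A.Z.2. Of the 12 tested histone chaperones, which carry histones to DNA, none was called in the 6 comparisons. The highest of them were Atrx, Rbbp7, Ssrp1 and Rbbp4.

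In the list of S phase and mitosis, 24 genes were tested and 1 was called, Top2a, which encodes the topoisomerase that untangles copied DNA. It fell with age in treadmill mice by 1.43 on the log2 scale (SE 0.24, edgeR adjusted p = 0.00555), from 1.51 ± 0.277 CPM (SD, n = 5) to 0.564 ± 0.139. In control mice it stood at 1.39 ± 0.417 and 0.621 ± 0.192 CPM (log2 fold change -1.15, SE 0.24, edgeR adjusted p = 0.0896), and Top2a was also called lower in the averaged age contrast. The highest genes of the list, Pcna, Mcm6, Rrm1 and Ccne1, were not called in any comparison, and the list's median log2 fold change was 0.01 for age in treadmill mice. Over all genes edgeR called 0.384% with age in treadmill mice and 1.89% in the averaged age contrast. Rmrp and Rpph1 had log2 fold changes of 3.02 (SE 0.73, edgeR adjusted p = 1.0) and 2.42 (SE 0.85, edgeR adjusted p = 1.0) for treadmill at 5 months.

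Among cell type lists, with age in treadmill mice the oligodendrocyte progenitor genes Gpr17, a receptor of cells about to mature, and Neu4, a sialidase, were the 2 of 8 called. Both fell, but 5 of the 8 had log2 fold changes above 0, and the list's median was 0.025. Over all genes, edgeR called 0.384% in this comparison. The list summed to 331 ± 29.5 CPM (SD, n = 5) in 5-month and 319 ± 12.9 in 20-month treadmill mice. Gpr17 was at 55.7 ± 5.76 and 29.5 ± 8.54 CPM (SD, n = 5) at 5 and 20 months (log2 fold change -0.92, SE 0.16, edgeR adjusted p = 0.0130), and Neu4 at 12.2 ± 0.951 and 9.45 ± 1.01 (log2 fold change -0.37, SE 0.08, edgeR adjusted p = 0.0429). With age in control mice neither was called, but both had an unadjusted edgeR p under 0.05, which 7.63% of all genes had. In the age contrast averaged over control and treadmill mice, Gpr17 and Neu4 were again the 2 of 8 called, both lower. There 4 of 10 microglial genes (C1qa, C1qb, Cd68 and Trem2) were called higher, and Sox11 of 11 genes of neural progenitors and immature neurons was called lower. Of all genes, edgeR called 1.89% in the averaged contrast. Of the 18 choroid plexus genes none was called, with a summed level of 270 to 7239 CPM in 5-month controls, 262 to 11540 in 5-month treadmill mice, 206 to 8556 in 20-month controls and 196 to 8341 in 20-month treadmill mice. None of the choroid plexus genes was at 0 in all libraries. No gene was called in any of the 6 comparisons among the tested genes of oligodendrocytes (10), ependymal cells (9), endothelial cells (8), erythrocytes (5), lymphocytes (5) or hippocampal neurons (12). Without the 5 libraries high in them, the averaged age change of Hist3h2a was -0.41 (SE 0.08, edgeR adjusted p = 0.0260). Whether the other lists had a part in it was not tested.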

How the data were processed

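The values are whole-number counts of reads per gene, deposited by the authors in 1 table. Per the submitters' processing notes, the build is GRCm38 and the tools named are featureCounts 1.4.6-p4, STAR 2.4.1d and bcl2fastq 1.8.2; the annotation, strand setting and treatment of reads fitting several genes are not given in these sources. Of 47729 rows, 505 had no name in the name table and held 0.0676% of counts. The members and the gene lists were chosen with earlier results of these data known. All 20 libraries entered 1 edgeR 4.0.16 quasi-likelihood fit (R 4.3.3) with filterByExpr, TMM factors and Benjamini-Hochberg adjustment over 16945 genes, called at 0.05 and tested on simulated data. CPM values are counts over each library's size in the genes that passed the filter times its TMM factor. They therefore differ somewhat from counts over the library's total. Intervals are 95%. Measurable members, the 5 highest of the others, and each list's called and 4 highest genes were to be named; Hist1h2ac, Hist2h2ac, Hist1h2ab, Trim17 and Slbp, outside that rule, were chosen after their values were seen. Stem-loops, polyadenylation signals and 31-base windows were read from GENCODE M21 transcripts. Also tried were upper-quartile and median-of-ratios factors, other filters, DESeq2 1.42.0, only the groups compared, and leaving out single libraries or those with a choroid plexus score (mean log2 CPM over markers, centred per gene) above 2. The averaged age contrast was added after seeing the data. Replicates of a group differed by more than sampling noise, with chi-square per degree of freedom of at least 6.50. The precision of low genes is limited by totals of 17653438 to 34495780 counts.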

Additional observations from a re-analysis of the deposited data

Results flagged for a closer look

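In each group of 5 libraries, the level of every measurable member and the summed levels were searched for a single library far from the other 4. Of 68 such sets 10 held one, where chance alone gives about 1 in 20 independent sets. These sets are not independent, since the sums contain the single genes and several genes share a library, so the count is not read against that share. Replicate 2 of the 5-month treadmill group stood apart for Hist1h2be, with 10.14 CPM against 5.15 to 6.50 in the other 4 libraries, for the sum of all members, with 146.9 CPM against 88.8 to 99.9, and for the sum of H2B members, with 70.52 CPM against 45.6 to 49.9. Replicate 1 of the 5-month controls stood apart for Hist1h2bc, with 30.27 CPM against 16.7 to 20.2, for Hist1h1c, with 23.3 CPM against 14.1 to 16.02, and for the H1 sum, with 24.13 CPM against 14.55 to 17.1. This library was also 1 of the 5 high in choroid plexus markers, whose part in these levels was not tested. Replicate 5 of the 5-month controls stood apart for Hist3h2a, with 23.27 CPM against 16.4 to 18.15, and for the H2A sum, with 23.72 CPM against 16.6 to 18.6. In the 20-month controls Hist1h1e was at 1.305 CPM in replicate 3 against 0.206 to 0.362, and Hist1h4h was at 0.08239 CPM in replicate 5 against 0.507 to 0.597. The last value is 2 counts, below the 3 counts taken as the floor.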

How the results depend on the processing

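Of 1741 recomputed log2 fold changes of single members, 1673 kept their direction and side of the threshold, and 60 turned direction, all with a reported size of at most 0.23. No alternative called another member. For treadmill at 5 months, Hist3h2a turned to 0.0041 with upper-quartile factors, 0.0046 without a filter, 0.00074 with a filter on a mean of 1 CPM, 0.0023 with only the groups compared and 0.144 without the libraries rich in choroid plexus RNA. Without those libraries, treadmill at 20 months gave 0.046 for Hist1h4i and -0.033 for Hist1h2be, the interaction -0.136 for Hist3h2a, and age in controls 0.038 for Hist1h2be and 0.134 for Hist1h2bc; Hist1h2be in age in controls was 0.0059 with upper-quartile factors and 0.0064 without a filter. Leaving out 1 library at a time gave, for treadmill at 5 months, -0.0036 to 0.50 for Hist2h4 and -0.061 to 0.097 for Hist3h2a. For treadmill at 20 months it gave -0.11 to 0.018 for Hist2h2be, -0.20 to 0.062 for Hist2h4, -0.17 to 0.012 for Hist3h2ba, -0.0039 to 0.090 for Hist3h2a, -0.54 to 0.25 for Hist1h4i, -0.14 to 0.26 for Hist1h2be and -0.15 to 0.0011 for Hist1h2bc. For the interaction it gave -0.046 to 0.11 for Hist3h2a. For age in controls it gave -0.44 to 0.075 for Hist2h4, -0.072 to 0.11 for Hist3h2ba, -0.22 to 0.077 for Hist1h2be, -0.61 to 0.27 for Hist1h1e and -0.088 to 0.17 for Hist1h2bc. For Hist2h2be it gave -0.29 to 0.017 with age in treadmill mice and -0.090 to 0.063 in the averaged age contrast.

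Over all genes, calls with age in controls numbered 4 with only the groups compared and 40 with DESeq2, against 12. In treadmill mice they numbered 187 with DESeq2, 32 without the libraries rich in choroid plexus RNA and 29 to 82 leaving out 1 library, against 65. In the averaged age contrast they numbered 654, 147 and 154 to 472, against 320, and members called were 0 to 1 leaving out 1 library. The cause was not tested. Without its 3 highest members the summed level was 29.4, 36.3, 29.7 and 28.6 CPM in the order 5-month control, 5-month treadmill, 20-month control and 20-month treadmill. No paired analysis was possible because the title numbers pair no libraries across groups. A fit to only the groups compared was not run for the interaction or the averaged contrast, which need all 4 groups. Low counts limit the H4 genes and Hist1h1e most.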
